A study of Homo sapiens with 8 samples.

Results

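The 10 keratin genes KRT23, KRT20, KRT19, KRT18, KRT17, KRT10, KRT8, KRT7, KRT80 and KRT81 were followed through 8 one-colour expression arrays of 2 human liver cancer lines. They were listed around KRT23 because its intensity fell so far in treated HepG2 cells, and each was taken through every probe that carried its symbol and no other in the platform annotation. This gave 9 probes for 9 of the 10 genes, among 31741 probes and 18336 named genes on the array. KRT18 had no probe of its own and is not reported. The arrays held RNA of HepG2 and of PLC/PRF/5 (PLC5), each line as control cells and as cells given 10 µM GSK343, an inhibitor of the histone methyltransferase EZH2, with 2 arrays in each of the 4 groups. The titles give 16 h for all arrays, whereas the treatment protocol gives an incubation of 6 h. The labels used here name no solvent for the controls. They also do not say that replicate arrays stem from different cultures, so p-values measure only the spread between these arrays, which may be technical.

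Keratins are the intermediate filament proteins of epithelial cells. A filament is built from pairs of a smaller, acidic type I keratin and a larger, basic type II keratin, and it is tied to desmosomes and hemidesmosomes by plakins and plakophilins. Hepatocytes normally make the pair KRT8 and KRT18, and bile duct cells add KRT7 and KRT19. KRT20 is known from intestinal epithelium and urothelium, KRT10 from the upper layers of the epidermis, KRT17 from skin appendages and wounded skin, and KRT81 from hair. KRT23 is a type I keratin described as rising in stressed and diseased liver, and KRT80 is a type II keratin of differentiating epithelia.

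Among the genes followed here, the type I genes KRT10, KRT20, KRT23, KRT19 and KRT17 lie in that order on chromosome 17, and KRT20 and KRT23 have no coding gene between them in the RefSeq table. The type II genes KRT80, KRT7, KRT81 and KRT8 lie on chromosome 12, where KRT8 is followed directly by KRT18. RefSeq promoter windows, 250 bases before to 50 bases after a start site in GRCh38.p14, were held for 3 of the 10 genes. The windows of KRT10 and KRT20 are shown 5′ to 3′ because KRT20 lies next to KRT23 and KRT10 lies beyond KRT12 in the same cluster. That of KRT8 is not shown, since it starts 23391 bases inside the annotated end of the gene. Capitals mark matches, on either strand, to any of the words searched: the TATA word TATAAA, the CCAAT box word CCAAT, the GC box word GGGCGG and the AP-1 word TGANTCA.
KRT10 (chr17:40822565-40822864, minus strand): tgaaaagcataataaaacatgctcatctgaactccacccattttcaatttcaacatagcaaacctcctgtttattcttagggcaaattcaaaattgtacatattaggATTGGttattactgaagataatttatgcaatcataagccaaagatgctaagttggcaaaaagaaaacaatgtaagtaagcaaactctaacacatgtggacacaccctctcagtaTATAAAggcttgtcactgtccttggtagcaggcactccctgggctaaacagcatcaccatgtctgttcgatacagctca
KRT20 (chr17:40885193-40885492, minus strand): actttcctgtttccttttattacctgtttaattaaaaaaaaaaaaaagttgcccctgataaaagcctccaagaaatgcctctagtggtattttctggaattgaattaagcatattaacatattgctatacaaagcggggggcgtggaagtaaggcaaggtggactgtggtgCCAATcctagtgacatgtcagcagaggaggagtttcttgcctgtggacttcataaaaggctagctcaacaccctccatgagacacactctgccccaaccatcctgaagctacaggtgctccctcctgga

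Both windows are poor in CpG dinucleotides, with 1 in KRT10 and 2 in KRT20 against a median of 14 over 35116 promoter windows, of which 18.2% hold at most 2. Their GC content is 37.7% and 44%, against a median of 58.7%. The KRT10 window holds TATAAA 29 to 24 bases before the start, a word found in 11.5% of all windows. It also holds CCAAT on the opposite strand, and the KRT20 window holds CCAAT on its own strand, a word found in 34.6% of all windows. Neither window holds GGGCGG (45% of all windows) or TGANTCA (7.7%).

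Intensities are given after quantile normalization over the 8 arrays, on a linear scale, and differences on a log2 scale with the standard error of the limma fit and n = 2 arrays per group. The deposited medians ranged from 226 to 341 in HepG2 and from 415 to 552 in PLC5, and in HepG2 both treated arrays were brighter than both controls, so every change is relative to the other probes. Before normalization the median probe was higher by 0.50 (log2) in treated HepG2, by 0.11 in treated PLC5 and by 0.86 in PLC5 controls over HepG2 controls. Arrays of the same group correlated with r from 0.984 to 0.989 across probes, and those of different lines with r from 0.887 to 0.903. Levels of different probes are not set against each other. As bulk RNA was measured, fewer cells with a transcript and less of it per cell cannot be told apart. Of the hepatocyte markers, 8 of 9 genes had a probe, and all 8 lay above an intensity of 64 on every array. Their summed intensity was 1373772 to 1559763 in HepG2 and 342390 to 374753 in PLC5, but they did not move as one. Of their 11 probes, limma called 9 lower in PLC5 controls at an adjusted p under 0.05, down to -7.61 (log2) for ALB. It called 1 higher, FGB, by 2.08. These calls make 90.9% of the 11, against 55.3% of all probes. Of 4 leukocyte genes, the defining PTPRC and CD3E lay below 64 on all 8 arrays, a level called dim here. The other two, of macrophages, did not: CD14 had group means of 3776 to 3846 in HepG2 and 563 to 566 in PLC5, and CD68 of 1541 to 1904 over the 4 groups. The summed level was 5046 to 6254 in HepG2 and 2042 to 2802 in PLC5.

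In HepG2, KRT23 was the keratin with the largest difference between treated and control arrays. Its probe read 10281 and 10073 in the controls and 2553 and 2706 after GSK343. Both treated arrays lay far below both controls, and the same was seen in the deposited values, which went from 7257 and 6472 to 2054 and 2503 while the array medians went up. The difference was -1.95 ± 0.12 (log2), a level 3.87-fold lower. Its absolute difference stood at percentile 99.44 of all probes. KRT23 held place 3 of 633 genes in the order of falls that led to its choice. Beside it stood PPAT (-7.15 ± 0.74) at place 2 and MACROD2-AS1 (-1.89 ± 0.46) at place 4. That order held only genes called lower by limma (adjusted p under 0.05) with separate arrays, each at its brightest probe. The HepG2 contrast chose the genes described here, so their values and places in it are a description, and no test is read from it.

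**Figure D1:**
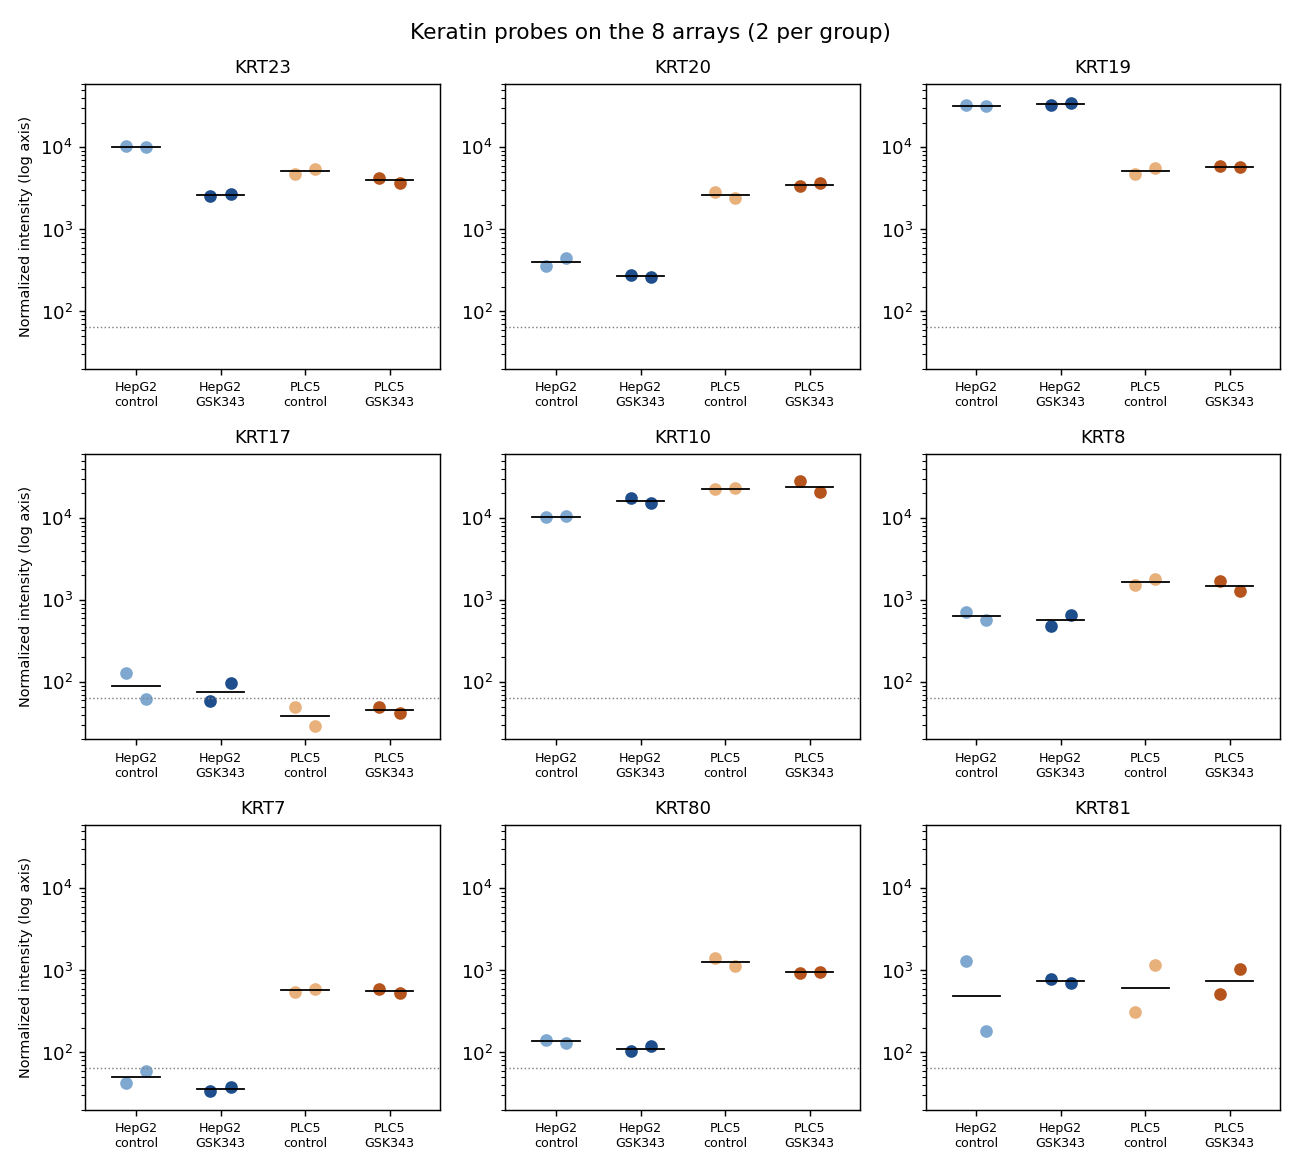
Normalized intensity (log axis) of the 9 keratin probes on the 8 arrays, with 2 points per group, a bar at their mean and a dotted line at 64, below which a probe is called dim. KRT23 drops from 10281 and 10073 to 2553 and 2706 in HepG2, KRT7, KRT20 and KRT80 lie far higher in PLC5 than in HepG2, KRT19 lies far lower, and the arrays of KRT81 spread within groups.

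The other type I keratins of HepG2 did not share the size of that fall. KRT10 read 10175 and 10631 in the controls and 17533 and 15055 after GSK343, which is 0.64 ± 0.15 (log2) higher. Of the 9 keratins followed here, it was the only one with separate arrays and a clear difference upward. It was higher under each of the 17 alternative settings tried. KRT19 read 32934 and 31960 in the controls and 32966 and 34354 in treated cells, a difference of 0.05 ± 0.11 with a 95% interval of -0.19 to 0.30. The arrays of the 2 groups nearly touched, and the sign turned with arrays centred on their median. KRT20 read 359 and 446, then 278 and 264, a difference of -0.56 ± 0.15. Its deposited values were 224 and 259 in the controls and 233 in both treated arrays, so the lower level was seen only relative to the brighter treated arrays, and without normalization the difference was -0.05. KRT17 was near the dim level with overlapping arrays, from 62.2 and 129 to 59.0 and 98.2.

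Of the type II keratins in HepG2, none had treated arrays as far from the controls as KRT23. KRT8, the hepatocyte keratin, read 715 and 575 in the controls and 482 and 665 in treated cells, with overlapping arrays and a difference of -0.18 ± 0.21. KRT7 was dim on all 4 arrays, at 42.1 and 59.1 and then 33.5 and 38.4. KRT80 went from 144 and 129 to 104 and 119, a difference of -0.30 ± 0.15. For these 3 genes the sign turned without normalization, so no direction is read. KRT81 read 1306 and 182 in the controls and 778 and 699 in treated cells, and its 2 controls lay further apart than the arrays of any other group. Over all probes, limma called 8.1% in this contrast at an adjusted p under 0.05 (4.85% higher and 3.25% lower), and no call is given for the keratins. The arrays of 6 of 9 did not overlap (2 higher, 4 lower), against 58.2% of all probes (27.9% higher and 30.3% lower). As the genes were chosen on this contrast, nothing is read from this count.

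The PLC5 levels were no part of the HepG2 difference behind the choice, but the PLC5 arrays shared its normalization and its estimate of spread. In PLC5, no keratin passed the test after GSK343. KRT23 read 4791 and 5501 in the controls and 4249 and 3690 in treated cells. Both treated arrays were again the lower ones, but by -0.37 ± 0.12 (log2, limma adjusted p = 0.209). The 95% interval ran from -0.65 to -0.10. The PLC5 response minus the HepG2 response was 1.58 ± 0.17 for KRT23, which is given without a test because it contains the HepG2 contrast. Over all probes this difference was called for 0.696%, of which 0.328% were higher and 0.369% lower in PLC5.

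The arrays of KRT20 moved the other way in PLC5, from 2851 and 2443 to 3354 and 3660, a difference of 0.41 ± 0.15 (log2, limma adjusted p = 0.257). Those of KRT80 went from 1402 and 1145 to 930 and 966, a difference of -0.42 ± 0.15 (log2, limma adjusted p = 0.259). Neither passed the test, although the treated arrays lay apart from the controls for both genes. For KRT19 the controls read 4769 and 5590 and the treated arrays 5974 and 5702, with a 95% interval of -0.07 to 0.42 for the difference. KRT10, KRT8 and KRT7 had overlapping arrays, with intervals of -0.26 to 0.43, -0.65 to 0.30 and -0.47 to 0.42. These intervals leave room for changes of about the size seen for KRT20, so they do not show that the levels stayed the same. KRT17 was dim on all 4 PLC5 arrays (29.0 to 50.1), and KRT81, with 313 and 1173 in the controls and 521 and 1045 in treated cells, has an interval from -1.67 to 2.24, too wide to say anything of a change.

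Over the family in PLC5, limma called 0 of 9 keratins at an adjusted p under 0.05, against 0.87% of all probes (0.655% higher and 0.214% lower). Before adjustment, p was under 0.05 for 3 of 9 (KRT20 higher, KRT23 and KRT80 lower), against 14.5% of all probes. The arrays of 4 of 9 did not overlap (2 higher, 2 lower), against 45.1% of all probes (21.7% higher and 23.4% lower). The median difference over the 9 was 0.08 (log2), and over all probes it was -0.01. The count stayed at 0 under each alternative setting and without each of the 8 arrays in turn.

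**Figure D2:**
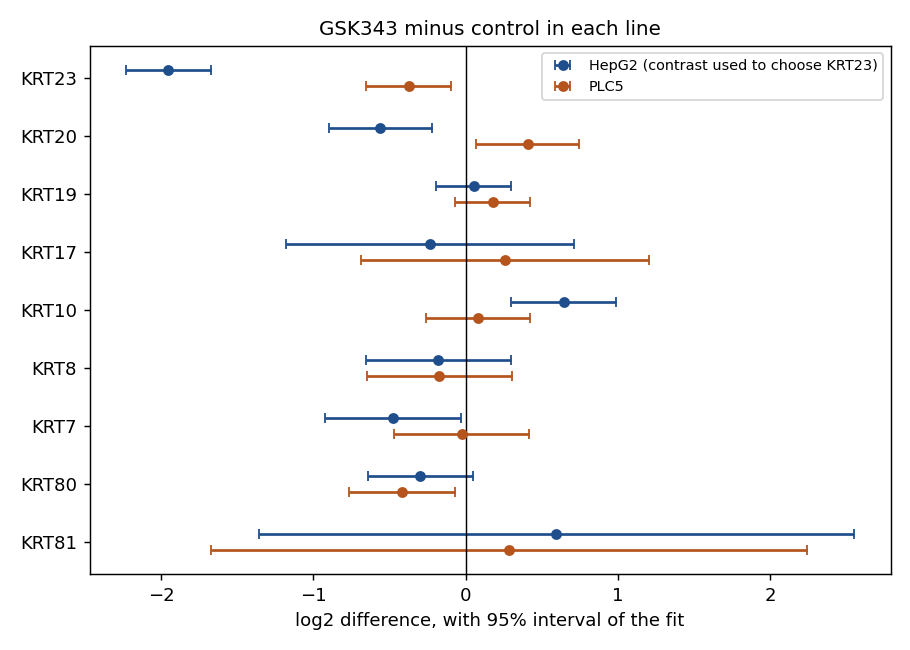
Difference between GSK343 and control arrays (log2) for each keratin in HepG2 and in PLC5, with 2 arrays per group and bars for the 95% interval of the fit. KRT23 lies at -1.95 in HepG2 and -0.37 in PLC5, KRT10 at 0.64 in HepG2, and the wide bars of KRT17 and KRT81 reflect their spread between arrays.

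The lines themselves differed in most of these keratins. Among control arrays, KRT7, KRT80, KRT20, KRT8 and KRT10 were higher in PLC5, and KRT19 was lower. KRT23 was also lower in PLC5, but its HepG2 controls took part in its choice and it is given without a test. Of the other 8 keratins, 5 were called higher and 2 lower, against 55.3% of all probes (25.8% higher and 29.5% lower). The arrays of 8 of all 9 did not overlap (5 higher, 3 lower), against 76.9% of all probes (35% higher and 41.9% lower).

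The largest of these differences were in type II keratins and KRT20. KRT7, the bile duct keratin, read 547 and 594 in PLC5 controls and only 42.1 and 59.1 in HepG2 controls, a difference of 3.51 ± 0.20 (log2, limma adjusted p = 7.26e-07). As the HepG2 values were dim, the difference with all values floored at 64 was 3.15. KRT80 was higher in PLC5 by 3.22 ± 0.15 (9.3-fold, limma adjusted p = 2.5e-07), with 1402 and 1145 against 144 and 129. KRT20, the intestinal keratin, was higher by 2.72 ± 0.15 (6.6-fold, limma adjusted p = 6.44e-07), with 2851 and 2443 against 359 and 446.

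KRT8, which pairs with KRT18 in hepatocytes, read 1519 and 1818 in PLC5 controls and 715 and 575 in HepG2 controls, a difference of 1.37 ± 0.21 (log2, limma adjusted p = 0.000506). KRT10 read 22489 and 23094 against 10175 and 10631, a difference of 1.13 ± 0.15 (limma adjusted p = 0.000227). Each PLC5 control lay above each HepG2 control for both genes. KRT19, the second bile duct keratin, went against KRT7. It read 4769 and 5590 in PLC5 controls and 32934 and 31960 in HepG2 controls, a difference of -2.65 ± 0.11, or 6.28-fold lower in PLC5 (limma adjusted p = 9.52e-08). KRT17 also passed at -1.23 ± 0.42 (limma adjusted p = 0.0318), but its PLC5 arrays were dim and the call was lost under 5 of the alternative settings and without either of 2 arrays, with adjusted p from 0.0522 to 0.383. KRT81 did not pass, with an interval from -1.64 to 2.27.

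Among arrays of treated cells the same line difference was found for most of these genes. Of the 8 keratins other than KRT23, 5 were called higher and 1 lower in PLC5, against 48.5% of all probes (23.1% higher and 25.3% lower). The arrays of 8 of all 9 did not overlap (6 higher, 2 lower), against 74.2% of all probes (33.7% higher and 40.5% lower). KRT7 differed by 3.96 ± 0.20 (log2), KRT20 by 3.69 ± 0.15, KRT80 by 3.10 ± 0.15, KRT8 by 1.38 ± 0.21 and KRT19 by -2.53 ± 0.11 (limma adjusted p from 8.2e-08 to 0.000508). The treated HepG2 values of KRT7 were dim, and with all values floored at 64 its difference was 3.13. KRT10 differed by 0.57 ± 0.15 (limma adjusted p = 0.0121), a call lost under median centring (adjusted p = 0.156), without the second treated HepG2 array (0.0817) and without the first treated PLC5 array (0.0778). KRT23 changed its order: it was 1.98-fold lower in PLC5 than in HepG2 among controls and 1.51-fold higher among treated arrays. Without normalization, which leaves PLC5 brighter as a whole, its difference was -0.12 among controls and 1.15 among treated arrays, and with quantile normalization within each line it was -0.30 and 1.36.

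**Figure D3:**
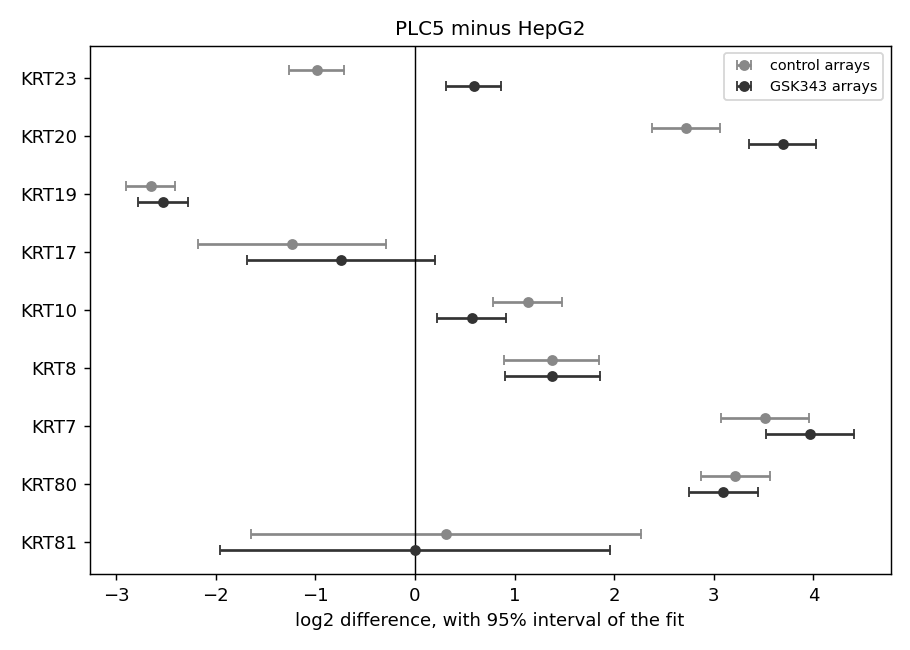
PLC5 minus HepG2 (log2) for each keratin among control arrays and among GSK343 arrays, with 2 arrays per group and bars for the 95% interval of the fit. KRT7, KRT80, KRT20, KRT8 and KRT10 lie above 0 and KRT19 below 0 in both, while KRT23 lies at -0.99 among controls and 0.59 among treated arrays.

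Read by gene, the order of the 4 groups was as follows. KRT23 ran from HepG2 controls through PLC5 controls and treated PLC5 down to treated HepG2, and no neighbouring groups overlapped. KRT20 ran from treated PLC5 through PLC5 controls and HepG2 controls to treated HepG2, also without overlap. Over all probes, arrays did not overlap for 58.2% in HepG2, 45.1% in PLC5, 76.9% between controls and 74.2% between treated arrays of the lines. In deposited values KRT23 controls overlapped between the lines (6117 and 6507 in PLC5, 7257 and 6472 in HepG2). Those of KRT20 overlapped in HepG2 (224 and 259 in controls, 233 in both treated arrays). As HepG2 arrays chose the genes, these orders are a description. For KRT10 both PLC5 groups overlapped and lay above treated HepG2, which lay above the HepG2 controls. For KRT8 and KRT7 both PLC5 groups overlapped each other and lay above both HepG2 groups.

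Other markers of bile duct epithelium did not move as one between the lines beside KRT7 and KRT19. Of 6 such markers, 5 had a probe. EPCAM, an epithelial adhesion protein, SOX9, a duct transcription factor, CLDN4, a tight junction protein, and SPP1, osteopontin, were lower in PLC5 controls, with differences of -3.80 (SOX9) to -5.52 (SPP1) on the log2 scale, as KRT19 was. CFTR, the chloride channel, was higher in PLC5 (6.76 ± 0.26 log2, limma adjusted p = 6.36e-08), as KRT7 was, and its HepG2 controls read 63.0 and 33.1. The summed intensity of the 5 probes was 198591 to 238501 in HepG2 and 9631 to 11670 in PLC5. The summed level of fibroblast markers was 21196 to 27911 in HepG2 and 1646 to 2225 in PLC5. In HepG2 most of it came from ACTA2, smooth muscle actin, with group means of 17848 and 25242 there and 135 and 147 in PLC5. In PLC5 most of it came from COL1A1, with group means of 1253 and 1718. The fibroblast genes other than ACTA2 did not move as one. PDGFRB and COL1A1 were lower in PLC5 controls (-2.57 and -0.61 log2), COL3A1 was higher (1.95) from dim HepG2 values, and DCN was dim on all arrays. Their part in the keratin differences was not tested.

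Beyond the genes chosen, 44 other keratin genes had 46 probes, of which 16 were dim in every group. After GSK343 in PLC5, limma called none of the 46 at an adjusted p under 0.05, against 0.87% of all probes. An unadjusted p under 0.05 was found for 6 of the 46, against 14.5% of all probes. Their median difference was 0.03 (log2). Between controls of the lines, 5 of the 46 were called higher and 12 lower in PLC5, or 37% against 55.3% of all probes (25.8% higher and 29.5% lower). Their median was -0.20, beside -0.09 over all probes. KRT222, a keratin-like gene, was the furthest apart, with 5996 and 5075 in PLC5 controls and 74.5 and 101 in HepG2 controls (5.99 ± 0.19 log2, limma adjusted p = 2.08e-08). Its second probe gave 4.51 ± 0.24. KRT86, a hair keratin whose gene lies beside KRT81, differed by 2.31 ± 0.29 (log2, limma adjusted p = 0.000164) from dim HepG2 values of 23.9 and 19.2, and KRT15, a keratin of basal epithelial cells, by 1.62 ± 0.16 (limma adjusted p = 2.91e-05). Of the basal pair KRT5 and KRT14, KRT5 was dim on all arrays, with group means of 40.8 to 50.4. KRT14 was not, and it went against KRT15, with 2108 and 2238 in PLC5 controls and 4744 and 5485 in HepG2 controls (-1.23 ± 0.13 log2, limma adjusted p = 4.18e-05).

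Among the other intermediate filaments, VIM was the probe furthest apart in the lists described here. VIM, vimentin, the filament of mesenchymal cells, read 107160 and 123245 in PLC5 controls and 78.2 and 88.1 in HepG2 controls, a difference of 10.43 ± 0.28 (log2, limma adjusted p = 7.57e-09). INA, a neuronal filament, was also higher in PLC5 (4.20 ± 0.17, limma adjusted p = 8.12e-08), and so was the neurofilament gene NEFH (3.38 ± 0.24 and 1.77 ± 0.29 by its probes). NES, nestin, a filament of progenitor cells, was lower, with 612 and 655 against 7242 and 7350 (-3.53 ± 0.12, limma adjusted p = 2.86e-08). In all, 7 of 21 probes of 15 such genes were called higher and 7 lower in PLC5 controls, or 66.7% against 55.3% of all probes. Their median was -0.27. After GSK343 in PLC5, 1 of the 21 probes was called, lower, or 4.76% against 0.87% of all probes. An unadjusted p under 0.05 was found for 5 of the 21, against 14.5% of all probes. The median was -0.12. The probe called was one of LMNB1, a nuclear lamin, with 368 and 348 in the controls and 208 and 172 in treated cells (-0.92 ± 0.14 log2, limma adjusted p = 0.0253). The second LMNB1 probe gave -0.51 ± 0.13 (limma adjusted p = 0.12), and the call was lost under most alternative settings.

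Among proteins that anchor keratins, the share that differed between the lines was near that of all probes. Of 33 probes for 18 anchor and partner genes, 6 were called higher and 11 lower in PLC5 controls, or 51.5% against 55.3% of all probes. Their median was -0.18. PKP3, a desmosomal plakophilin, read 268 and 256 in PLC5 controls and 6630 and 6917 in HepG2 controls (-4.69 ± 0.13 log2, limma adjusted p = 8.42e-09). EPPK1, epiplakin, differed by -4.51 ± 0.13 (limma adjusted p = 1.22e-08), while its second probe was dim in both lines. PPL, periplakin, was lower as well (-1.86 ± 0.15, limma adjusted p = 9.69e-06), and ITGB4, the integrin of hemidesmosomes, was higher by 2.81 ± 0.18 (limma adjusted p = 1.78e-06) and by 0.47 ± 0.15 at its second probe. After GSK343 in PLC5, limma called none of the 33 probes at an adjusted p under 0.05, against 0.87% of all probes. An unadjusted p under 0.05 was found for 5 of the 33, against 14.5% of all probes.

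**Figure D4:**
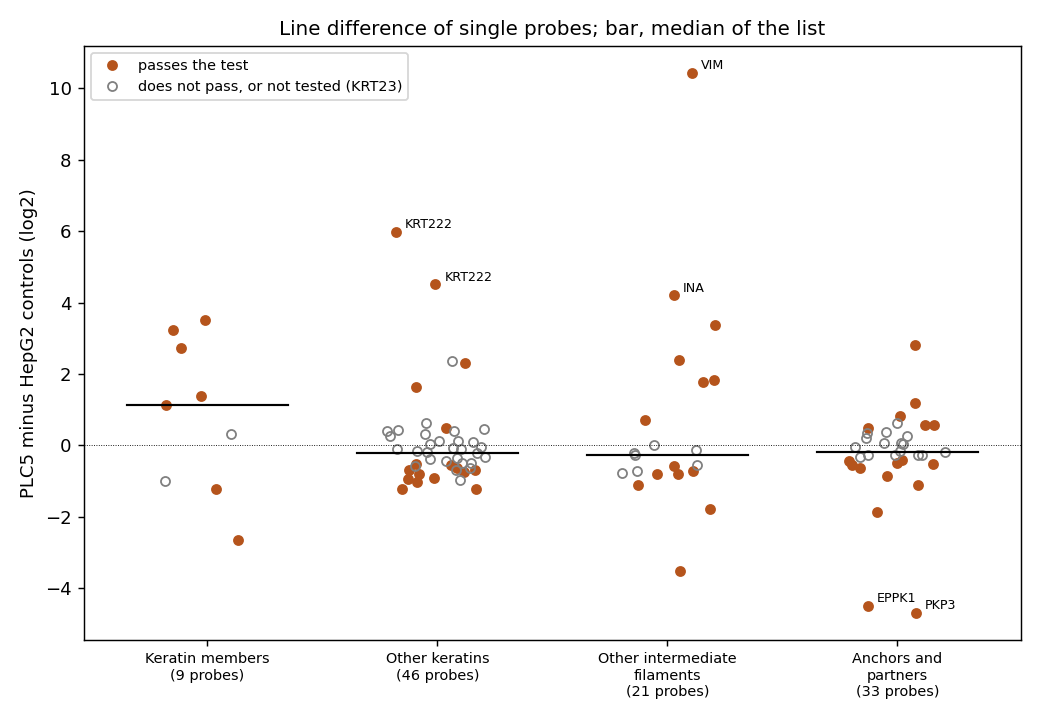
PLC5 minus HepG2 among control arrays (log2) for single probes of the keratins followed here, of other keratins, of other intermediate filaments and of keratin anchors and partners, with a bar at each list's median. Filled points passed the limma test, KRT23 is shown untested, and probes beyond 4 in either direction are named, VIM at 10.43 being the highest and PKP3 at -4.69 the lowest.

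The genes whose pattern over the 8 arrays was most like that of KRT23 were BCL2L1, RELL2, WDR46, ZNF587B and EPHA2, with Pearson's r from 0.960 to 0.976 among 13537 probes of the brighter 50%. They share arrays with KRT23, and r was over 0.9 for 56 probes, so the likeness is a description. BCL2L1, which encodes the survival protein BCL-XL, read 16079 and 15061 in HepG2 controls and 10012 and 9985 in treated HepG2, a difference of -0.64 ± 0.10 (log2). EPHA2, an ephrin receptor, read 4603 and 4793, then 2133 and 2146, a difference of -1.13 ± 0.11. All 5 had their highest level in HepG2 controls and their lowest in treated HepG2, and the HepG2 differences, from -0.45 to -1.13, were smaller than that of KRT23.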

How the data were processed

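The authors deposited linear intensity values for each probe, which reach 0 or less on some arrays. Per the labels, amplified amino-allyl RNA was coupled to Cy5. Scanner software and detection flags were not used here. Intensities were quantile normalized over 8 arrays, floored at 1 and taken to log2. Group means were fitted with limma 3.58.1 (R 4.3.3) on all 8 arrays, with eBayes and an intensity trend (4 residual and 4.75 prior degrees of freedom). All p-values are two-sided, with Benjamini-Hochberg adjustment across 31741 probes. Symbols came from the platform annotation, updated through RefSeq for the lists: 22722 were current, 1948 were updated and 70 matched nothing. Probe sequences were not used here, so hybridization to near-identical keratin copies or pseudogenes was not checked. The fit was run on simulated data with normal noise as a check of the code, and nothing about the keratins is read from it.

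Genes named were all members, up to 4 called probes of each other list with the largest change, and the 5 genes most correlated with KRT23. Members and lists were chosen with earlier results of these data known. The replicate numbers did not pair the arrays: their deviations correlated at -0.222 to -0.005 between groups. The number of arrays limits the precision.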

Additional observations from a re-analysis of the deposited data

Results flagged for a closer look

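KRT20 was singled out for treated arrays that lay apart from the controls in opposite directions. In HepG2 both lay below both controls (278 and 264 against 359 and 446). In PLC5 both lay above them (3354 and 3660 against 2851 and 2443). Treated and control arrays lay apart for 58.2% of all probes in HepG2 and 45.1% in PLC5. The deposited HepG2 values were 233 in both treated arrays, between the controls of 224 and 259. Without normalization the HepG2 difference was -0.05 (log2). The PLC5 response minus the HepG2 response was 0.97 ± 0.21 (log2), and the difference was not tested, because it contains the contrast on which the genes were chosen. It ranged from 0.50 to 1.13 over the alternative settings, the lowest without normalization.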

How the results depend on the processing

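The fall of KRT23 in HepG2 was -2.09 (log2) with arrays centred on their median and -1.60 without normalization, and -1.99 to -1.91 without any 1 array. The 0 calls among the 9 keratins in PLC5 stayed 0 under all alternatives. With the dimmer 50% of probes left out, the calls between lines went from 7 to 4 among controls and from 6 to 4 among treated arrays. KRT17, KRT7 and KRT80 were among the probes left out, so they were not tested in that setting. The single LMNB1 call of the other intermediate filaments in PLC5 became 0 without normalization, with a floor of 64, without the intensity trend, with a replicate block, with only the 4 arrays compared, with a log2 threshold of 1 and at 1 probe per gene; without any 1 array it was 0 to 1, and 0 without either treated HepG2 array or any PLC5 array. The replicate block left 0 keratins called in PLC5 and 7 and 6 between lines. The sources of these changes were not tested. Where an array was left out, the lone array of its group was assumed to vary like the others.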

Other observations

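The coding genes on each side of KRT23 were read in HepG2 as a description, since they were looked at after the fall of KRT23 was known. KRT39, the next gene after KRT23, had a mean of 168 in controls and 101 after GSK343, a difference of -0.74 ± 0.21 (log2). KRT20 on the other side differed by -0.56 ± 0.15, and by -0.05 without normalization. KRT12, next after KRT20, differed by -0.16 ± 0.18, and KRT10 beyond it by 0.64 ± 0.15. On the far side KRT40, which was dim, differed by -0.18 ± 0.43 and KRTAP3-3 by -0.16 ± 0.16. The differences of KRT12, KRT40 and KRTAP3-3 were smaller than their standard errors, so no direction is read for them. None of the neighbours was tested.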
